A study of Mus musculus with 18 samples.

Results

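The combined response of mouse primary chondrocytes to low oxygen and interleukin-6 (IL-6) was measured by RNA sequencing, by setting 3 libraries from cells kept at 1% oxygen (hypoxia) with IL-6 against 3 libraries from cells kept at 21% oxygen (normoxia) without treatment, all at 12 h. These 6 libraries were taken by their labels from a series of 18. To ask how far the joint change equals the sum of the single changes, 3 libraries of hypoxia at 12 h without IL-6 and 3 of normoxia at 12 h with IL-6 were used as well. The 6 libraries at 0 h served as a further readout of hypoxia. All cells were labelled wild type, from cartilage. The medium was serum-free and the IL-6 dose was 100 ng/ml. The treatment protocol allows for IL-6 or IL-6R, while the sample labels name IL-6. The animals' age, strain and number are not stated in the labels.

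Cartilage has no blood vessels, and chondrocytes, which build and maintain its matrix, live at low oxygen. When oxygen falls, prolyl hydroxylases stop marking the hypoxia-inducible factors for destruction, and these factors then switch on genes of glycolysis, vessel growth and matrix assembly. IL-6 acts through its receptor and gp130 on JAK kinases and the transcription factor STAT3, and is known in joints for driving inflammation and matrix breakdown.

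The table gives counts per UCSC transcript identifier and pairs no identifier with a gene, and none of the gene tables used here lists such identifiers. Genes are therefore not named, and no marker of chondrocytes or of other cell types could be checked. Several identifiers may belong to 1 gene. Assigned counts ranged from 6764138 to 10241162 in hypoxia with IL-6, from 3587239 to 6377596 in hypoxia alone, from 5502257 to 9500166 with IL-6 alone and from 6695412 to 8953193 in untreated normoxia. A count of 0 allows up to 3 counts, for counting error only. In the shallowest of these 12 libraries that is 0.836 CPM (a library's counts scaled to a common total) by its raw total. On the TMM-scaled totals used for all other CPM here, it is 0.799 CPM. In bulk RNA, fewer cells of a type and less RNA per cell cannot be told apart. The labels leave the origin of the replicates unstated, so every p-value reflects the spread among these libraries, which may be technical. Among the hypoxia libraries at 12 h, those of replicate 3 had the largest share of reads outside annotated features (23.3% with IL-6 and 27.1% without); without replicate 3 in all hypoxia groups the joint change held 925 calls (421 higher, 504 lower).

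Hypoxia with IL-6 changed 734 of 13432 tested identifiers relative to untreated normoxia, 5.46% of those tested, by edgeR's quasi-likelihood test at a Benjamini-Hochberg adjusted p under 0.05. Of these, 356 were higher (2.65%) and 378 lower (2.81%). The median joint change, on the log2 scale, was 1.81 over the 356 risers and -1.35 over the 378 fallers, against 0.06 over all identifiers tested. At least 2-fold changes were found for 328 risers and 281 fallers (together 4.53% of those tested), at least 4-fold changes for 152 risers and 91 fallers, and at least 8-fold changes for 53 and 30. The 2 groups of libraries did not overlap for 733 of the 734; without regard to the test, 9.31% of all identifiers lay wholly higher and 11% wholly lower in hypoxia with IL-6. The count was 444 without hypoxia 12 h IL-6 replicate 1, 435 with only the 6 compared libraries in the fit, and 182 without replicate 2 in every group, where rises made up most of the calls (116 higher, 66 lower).

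The risers together held 5.78%, 5.43% and 4.88% of assigned counts in the libraries of hypoxia with IL-6, against 1.49%, 1.83% and 1.95% in untreated normoxia. The fallers held 3.89%, 2.91% and 4.25% in hypoxia with IL-6, against 8.96%, 7.55% and 8.18% in untreated normoxia. The identifiers were chosen on these 6 libraries, so that gap is a description. In libraries outside the joint contrast, which entered the fit only through its filter, scaling and estimate of spread, the risers held 4.11% ± 0.288 (SD, n = 3) in hypoxia alone and 2.67% ± 0.256 (SD, n = 3) with IL-6 alone. The fallers held 3.98% ± 0.634 (SD, n = 3) in hypoxia alone and 8.06% ± 1.10 (SD, n = 3) with IL-6 alone. Every library of hypoxia alone lay above every library of IL-6 alone for the risers, and below for the fallers. The fallers' mean share with IL-6 alone lay inside the range of untreated normoxia at 0 h, from 7.28% to 9.41%.

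**Figure D1:**
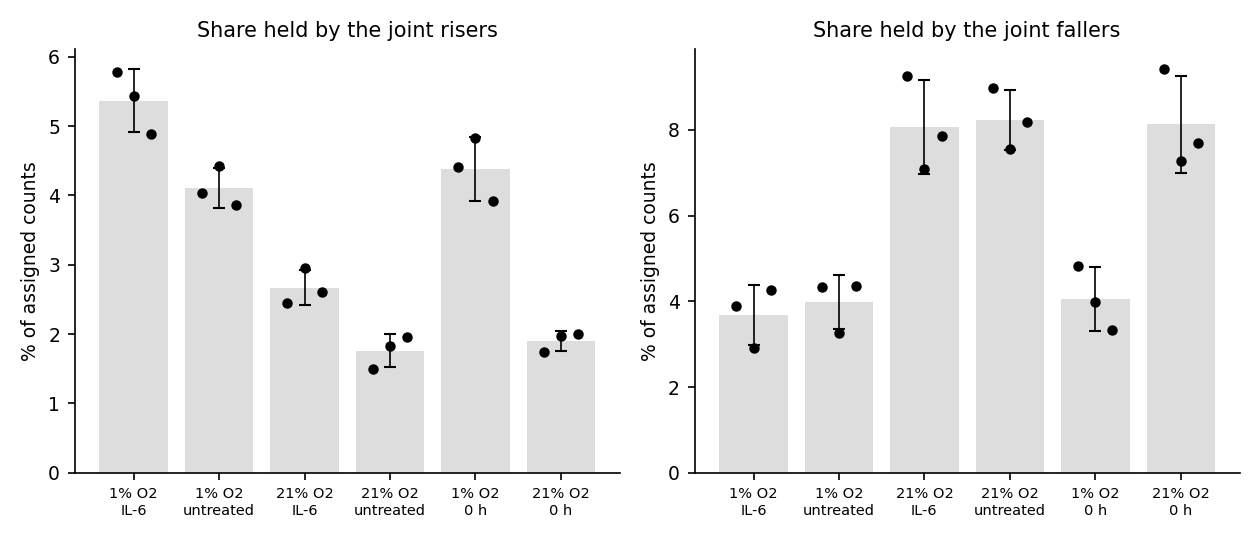
Share of assigned counts (%) held by the 356 joint risers (left) and the 378 joint fallers (right) in each library of the 6 groups; points are libraries, bars the mean and whiskers the SD (n = 3). The risers stand highest in hypoxia with IL-6 and next in the other hypoxia groups, and the fallers are low in all hypoxia groups and high in all normoxia groups.

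To split the joint change between its 2 agents, the hypoxia change was averaged over cells with and without IL-6 (the hypoxia part), and the IL-6 change over both oxygen conditions (the IL-6 part); on the log2 scale these parts add up exactly to the joint change. Over the risers the median hypoxia part was 1.19 and the median IL-6 part 0.51. Computed for each replicate number in turn, those medians averaged 1.13 ± 0.0854 and 0.47 ± 0.0797 (SD, n = 3). Over the fallers the median parts were -1.19 for hypoxia and -0.19 for IL-6, or -1.13 ± 0.0937 and -0.17 ± 0.0474 by replicate number (SD, n = 3). The values of both parts pair libraries by number across oxygen, where numbers did not all deviate together, so their SD depends on that pairing. Over all tested identifiers the medians were 0.07 and -0.01. The hypoxia part was the larger in the direction of the joint change for 257 of 356 risers and 355 of 378 fallers, against 9412 of all 13432 identifiers, so the risers' share was near that of all identifiers. Both parts pointed the same way as the joint change in 297 of 356 risers and 274 of 378 fallers, against 5585 of all 13432. The lists were chosen on the joint change, the sum of the parts. That choice itself favours such agreement, so these counts are a description.

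**Figure D2:**
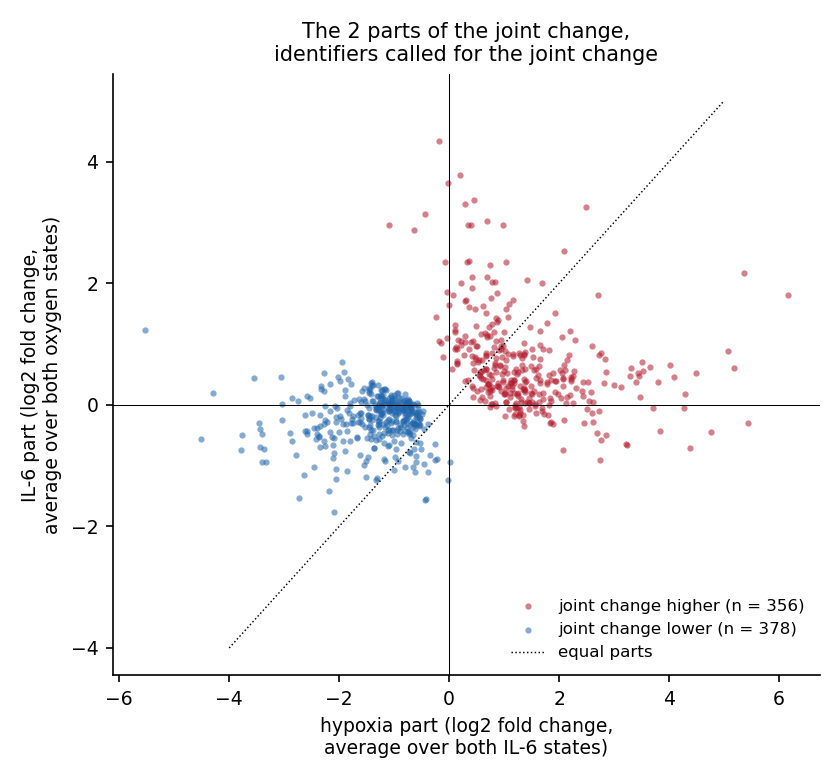
Hypoxia part (x axis, log2 fold change averaged over both IL-6 states) against IL-6 part (y axis, log2 fold change averaged over both oxygen states) for identifiers called in the joint change; red, 356 higher; blue, 378 lower; dotted line, equal parts. Most fallers spread along the hypoxia axis, with a median IL-6 part of -0.19, while the risers hold a second arm along the IL-6 axis.

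The difference between the parts equals hypoxia alone minus IL-6 alone, a contrast of the 6 libraries outside the joint contrast, although all 18 shared 1 fit. Against untreated normoxia, hypoxia alone called 5.52% of all identifiers (1.94% higher, 3.57% lower) and IL-6 alone 0.201%, all of them higher. Set against each other, hypoxia alone differed from IL-6 alone for 806 identifiers (6%), 263 higher (1.96%) and 543 lower (4.04%) in hypoxia alone, by the same edgeR test. Among the 356 risers, 114 (32%) were higher in hypoxia alone than with IL-6 alone and 32 (8.99%) were lower, so that IL-6 was the stronger single agent for those 32. Among the 378 fallers, 185 (48.9%) were lower in hypoxia alone than with IL-6 alone and 2 (0.529%) were higher. For 210 risers and 191 fallers the single agents were not told apart. Libraries with the same number and oxygen deviate together, so these 6 libraries are not fully independent of the other 6. The 806 became 460 and 512 when hypoxia 12 h untreated replicate 1 or 2 was left out, 449 without normoxia 12 h IL-6 replicate 1 and 534 without its replicate 3. The 114 became 75 without hypoxia 12 h untreated replicate 2, 71 without normoxia 12 h IL-6 replicate 3 and 73 without normoxia 12 h untreated replicate 3, and the 185 became 120 without normoxia 12 h IL-6 replicate 2. With lane as a term, which also raised the joint count, the 114 and 32 became 253 and 67 of 607 risers. The 185 became 469 of 770 fallers. Over all identifiers of that fit, 948 were higher and 1260 lower in hypoxia alone than with IL-6 alone, so the calls rose there too. Without replicate 2 in every group, 25 of the 116 risers of that fit were higher in hypoxia alone, 8 were higher with IL-6 alone, and 18 of the 66 fallers were lower in hypoxia alone.

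The single changes that define the 3 classes of risers were as follows, as medians on the log2 scale. The 114 had single changes of 2.18 for hypoxia and 0.07 for IL-6, and a joint change of 2.16. The 32 had single changes of 0.16 for hypoxia and 2.27 for IL-6, and a joint change of 2.52. The other 210 had single changes of 0.99 for hypoxia and 0.64 for IL-6, and a joint change of 1.69. The single changes share the untreated normoxia libraries with the joint change, so the 3 values are given side by side and not tested against each other.

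The 0 h libraries, labelled untreated in both oxygen conditions, had no part in the joint contrast. They shared lanes 3, 6 and 8 in hypoxia, and lanes 3 and 7 in normoxia, with libraries of that contrast. They also carried the same replicate numbers, and at 12 h libraries of the same number and oxygen deviated together. The 0 h counts may therefore not be independent of the joint calls, and the part of lane in them was not tested. At 0 h, 4.95% of tested identifiers differed; 2.13% of tested identifiers were higher and 2.82% lower in hypoxia than in normoxia by the same edgeR test. Of the 356 risers, 164 (46.1%) were already higher in hypoxia at 0 h and 1 was lower. Of the 378 fallers, 207 (54.8%) were already lower and 0 were higher. Among the 114 risers led by hypoxia alone, 94 (82.5%) were higher at 0 h, with a median change of 1.85 on the log2 scale. Among the 32 risers led by IL-6 alone, 1 was higher and 1 lower at 0 h, with a median of 0.10. Without replicate 2 in every group, 36 of 116 risers were higher and 18 of 66 fallers lower at 0 h. The share of all identifiers called at 0 h was not computed for that fit.

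Among the 13432 tested identifiers and without a replicate block, no departure from the sum of the single changes passed the test, which does not show that joint change and sum were equal; with no filter on low counts, 1 passed. The departure, the joint log2 change minus the sum of both single log2 changes, passed the test for 0 of 13432 identifiers (0%) by edgeR and for 0 by DESeq2; at an unadjusted p under 0.05 there were 167 by edgeR and 275 by DESeq2. Its median was -0.02 over the risers and 0.12 over the fallers, against 0.01 over all identifiers, where a positive value means a joint level above the sum. By replicate number the median departure averaged 0.03 ± 0.0975 over the risers (SD, n = 3). Over the fallers it was 0.15, 0.06 and 0.20 for replicates 1, 2 and 3, a mean of 0.14 ± 0.0697 (SD, n = 3). The departure was above 0 in 175 of 356 risers and 250 of 378 fallers, against 6836 of all 13432. The fallers' median was 0.01 without hypoxia 12 h IL-6 replicate 3, 0.22 without normoxia 12 h untreated replicate 3 and 0.06 without replicate 3 in all hypoxia groups. Hypoxia alone had the lowest mean depth, and with every library thinned to the shallowest total the fallers' median was 0.10.

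The 185 fallers led by hypoxia alone had a median departure of 0.24, with 150 of 185 above 0. By replicate number it was 0.26, 0.13 and 0.36. The 191 fallers whose single agents were not told apart had a median departure of 0.01, with 98 of 191 above 0. Among risers, the median was 0.20 for the 32 led by IL-6, with 23 of 32 above 0, and -0.09 for the 114 led by hypoxia, with 52 of 114 above 0. By replicate number the 32 had median departures of 0.28, -0.02 and 0.21, so replicate 2 did not share their direction. These classes were chosen on the single changes, which enter the departure themselves, so their departures are a description and no test was run on them.

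**Figure D3:**
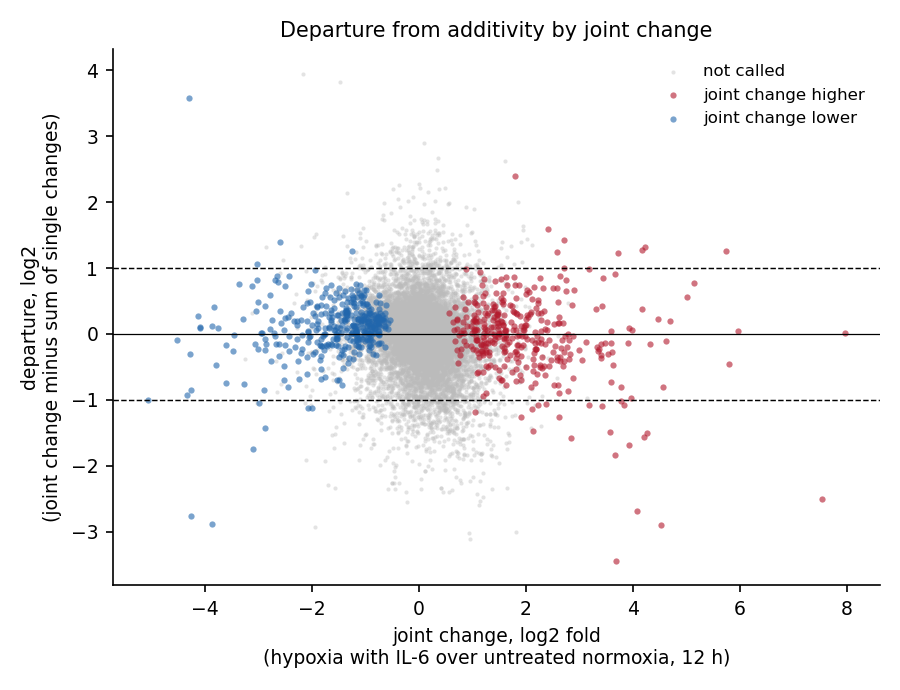
Departure (y axis, log2, joint change minus the sum of the single changes) against joint change (x axis, log2 fold, hypoxia with IL-6 over untreated normoxia at 12 h) for all 13432 tested identifiers; red, higher; blue, lower; grey, not called; dashed lines at 1 and -1. Of the risers 91.6% and of the fallers 96.8% lie between the dashed lines, against 92.8% of all identifiers.

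How firmly equality can be stated differs between identifiers. The point estimate of the departure lay within 1 log2 unit of 0 for 326 of 356 risers and 366 of 378 fallers. Its 95% confidence interval, unadjusted, lay wholly within 1 log2 unit for 78 risers (21.9%) and 153 fallers (40.5%), against 23.5% of all identifiers. The interval reached to either side of the estimate by a median of 1.02 over the risers and 0.85 over the fallers. The edgeR test gave an unadjusted p under 0.05 for the departure in 12 risers and 5 fallers, against 1.24% of all identifiers. For identifiers whose interval did not lie wholly within 1 log2 unit, a departure of 2-fold or more was not excluded. Since libraries with the same number deviated together in each oxygen condition, a replicate block within oxygen was also fitted. With it, the interval lay within 1 log2 unit for 187 risers (52.5%) and 233 fallers (61.6%), against 47.1% of all identifiers. The unadjusted p of the edgeR test with the block was under 0.05 for 55 risers and 39 fallers, against 8.03%.

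With that block, 6 identifiers (0.0447% of those tested) departed from the sum by the edgeR test after adjustment, 4 above and 2 below it, with 1078 at an unadjusted p under 0.05. All 6 departed the same way in each replicate number. The test with the block used the same libraries and favours such agreement, so it adds no further support. When 1 number was dropped from all groups, the block gave 0 calls without replicate 1, 3 without replicate 2 and 4 without replicate 3, of which 3 of the 3 and 2 of the 4 were among the 6. Of the 6, 2 had also passed the joint test.

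Of these 6, the largest departure above the sum belonged to an identifier whose level was far higher with both agents together than with either alone. It stood at 976, 587 and 575 CPM in hypoxia with IL-6, at 74.2, 45.0 and 52.2 CPM in hypoxia alone, at 265, 282 and 316 CPM with IL-6 alone, and at 61.9, 49.6 and 50.1 CPM in untreated normoxia. All libraries of hypoxia with IL-6 lay above all others. Hypoxia alone gave a log2 change of 0.09 and IL-6 alone 2.42, while the joint change was 3.73. Its departure with the block was 1.21 (SE 0.17, edgeR adjusted p = 0.00121). The second of the 6 above the sum was at 58.0, 52.5 and 38.6 CPM in hypoxia with IL-6, at 28.5, 37.5 and 24.8 CPM in hypoxia alone, at 46.7, 40.4 and 30.0 CPM with IL-6 alone, and at 58.3, 58.5 and 41.6 CPM in untreated normoxia. Each agent alone gave a lower mean, with log2 changes of -0.80 for hypoxia and -0.44 for IL-6, whereas the joint change was -0.09. Its departure was 1.16 (SE 0.20, edgeR adjusted p = 0.0140).

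Of the 6, the largest departure below the sum was in an identifier at 5.37, 4.47 and 10.1 CPM in hypoxia with IL-6, at 16.2, 6.43 and 21.3 CPM in hypoxia alone, at 7.72, 2.15 and 6.20 CPM with IL-6 alone and at 4.77, 1.10 and 3.98 CPM in untreated normoxia. The single changes were 2.16 for hypoxia and 0.71 for IL-6, and the joint change was 1.03, less than that of hypoxia alone. Its departure was -1.84 (SE 0.36, edgeR adjusted p = 0.0360). These 3 identifiers, and those given by rank further on, carry no gene name and are described without their identifiers.

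Adding log2 changes means multiplying folds, and the sum of changes in CPM gave another reading. Measured as the log2 ratio of the observed joint level to the level from adding both CPM changes, the median over the 356 risers was 0.19, with 246 above 0, where the same risers had a log2 departure of -0.02. For 61 of the 378 fallers the added CPM changes gave a level at or below 0. Over the other 317 the median log2 ratio was 0.36, with 256 above 0, against a log2 departure of 0.12. The 61 gave no ratio, and no observed level can lie below such a sum, so leaving them out lowers these values. Where both single changes go the same way, multiplied folds give a higher level than added CPM changes, which raises the ratio by arithmetic. The ratio was not computed over all identifiers, so these counts are a description.

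The largest joint rise by the rule for naming was uc009ukk.2, with both parts upwards. It was at 49.6, 20.9 and 7.77 CPM in hypoxia with IL-6, at 1.85, 1.18 and 2.40 CPM in hypoxia alone, at 3.49, 2.53 and 3.05 CPM with IL-6 alone, and at 0.31, 0.55 and 0.52 CPM in untreated normoxia, where it had 2, 5 and 5 counts. All libraries of hypoxia with IL-6 lay above all others, but they ranged over more than the other groups, at 26.1 CPM ± 21.4 (SD, n = 3). The joint change was 5.74 on the log2 scale (SE 0.62, edgeR adjusted p = 9.91e-06), and it ran from 4.81 to 6.13 when 1 library was left out. The hypoxia part was 2.49 (SE 0.42, edgeR adjusted p = 0.000485) and the IL-6 part 3.25 (SE 0.42, edgeR adjusted p = 0.000109). The identifier was chosen for its joint change, the sum of these parts, so their p-values are a description. The single changes, 1.86 for hypoxia and 2.62 for IL-6, did not pass (edgeR adjusted p = 0.124 and 0.118). That of IL-6 alone passed with the replicate block (edgeR adjusted p = 0.0387), with no filter on low counts (0.000377) and without hypoxia replicate 3 in all groups (0.0193). Both passed with lane as a term (0.0315 for hypoxia and 0.00787 for IL-6), without hypoxia 12 h IL-6 replicate 1 (0.0449 and 0.0152) and without its replicate 3 (0.0344 and 0.00930). Multiplying the folds of the mean levels gives 11.9 CPM and adding the CPM changes 4.37 CPM, against the observed mean of 26.1 CPM. The departure of 1.26 had a 95% interval from -0.49 to 3.01 and did not pass (edgeR adjusted p = 1.00); by replicate number it was 1.87, 2.09 and -0.46.

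The largest joint fall by the rule was uc008hmf.2, which followed oxygen. It was at 0.66, 0.17 and 0.55 CPM in hypoxia with IL-6, at 0, 1.18 and 2.93 CPM in hypoxia alone, at 7.90, 6.58 and 5.90 CPM with IL-6 alone, and at 9.24, 14.8 and 5.13 CPM in untreated normoxia. Both hypoxia groups lay wholly below both normoxia groups. Its joint change was -4.27 (SE 0.71, edgeR adjusted p = 0.000540), with counts of 7, 1 and 4 in hypoxia with IL-6, so the size of the fall is uncertain. The hypoxia part was -3.32 (SE 0.48, edgeR adjusted p = 8.85e-05), and the IL-6 part of -0.94 did not pass (edgeR adjusted p = 0.843). This identifier too was chosen for its joint change, the sum of these parts, so their p-values are a description. At 0 h it also fell in hypoxia, with a log2 change of -3.74 (SE 0.73, edgeR adjusted p = 0.00292). Without replicate 2 in every group the joint change was -3.51 and no longer passed (edgeR adjusted p = 0.0646).

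**Figure D4:**
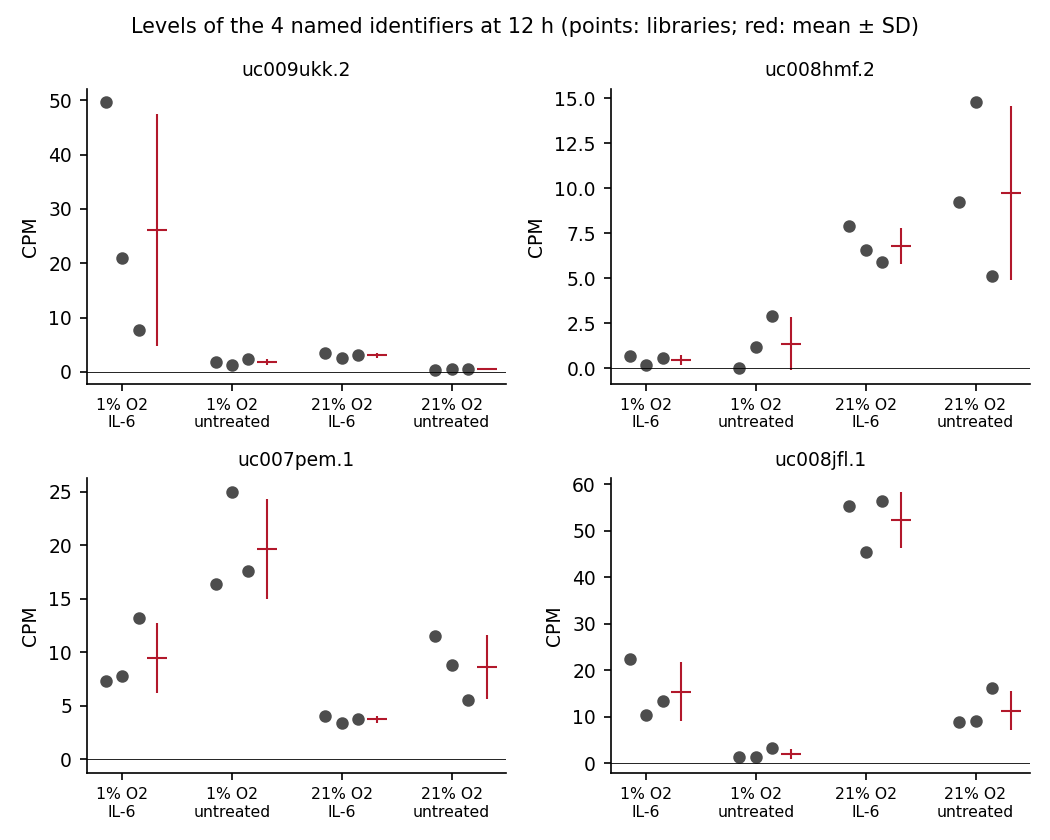
Normalised level (CPM, y axis) of the 4 named identifiers in the 12 libraries at 12 h, by oxygen and treatment; grey points are libraries, red marks the mean ± SD (n = 3). The identifier uc009ukk.2 is highest in hypoxia with IL-6, uc008hmf.2 is low in both hypoxia groups, and uc007pem.1 and uc008jfl.1 stand at similar levels in hypoxia with IL-6 and in untreated normoxia.

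The 10 largest rises by the rule, uc009ukk.2 included, had joint changes from 3.90 to 5.74. The hypoxia part was the larger in 7 of the 10 and the IL-6 part in 3. The hypoxia part was the larger in 9412 of all 13432 identifiers, so 7 of 10 was near that share. The second rise was at 14.6, 15.7 and 9.41 CPM in hypoxia with IL-6 and at 13.1, 16.2 and 7.72 CPM in hypoxia alone, against 0.18, 0.38 and 0.10 CPM with IL-6 alone and 0.46, 0.22 and 0.42 CPM in untreated normoxia. Adding IL-6 left it at a like level in hypoxia. In normoxia it had 1, 3 and 1 counts with IL-6 and 3, 2 and 4 without, too few to compare levels. The IL-6 part was -0.30 against a hypoxia part of 5.43. The seventh rise was the reverse, at 21.4, 7.96 and 11.9 CPM in hypoxia with IL-6, 0.82, 0 and 0.53 CPM in hypoxia alone, 13.8, 8.74 and 7.83 CPM with IL-6 alone and 0.62, 0.77 and 0.84 CPM in untreated normoxia. Its hypoxia part was -0.18 and its IL-6 part 4.35, and hypoxia alone differed from IL-6 alone by -4.52. These rest on 4, 0 and 2 counts in hypoxia alone and 4, 7 and 8 in untreated normoxia.

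The 10 largest falls had joint changes from -4.27 to -3.00, and the hypoxia part was the larger in 10 of 10. It was also the larger in 355 of all 378 fallers and in 9412 of all 13432 identifiers. Their hypoxia parts ran from -3.46 to -2.12 and their IL-6 parts from -1.42 to -0.31. The third fall was at 7.44, 19.7 and 7.64 CPM in hypoxia with IL-6, 10.3, 26.4 and 8.79 CPM in hypoxia alone, 105, 89.6 and 153 CPM with IL-6 alone and 143, 151 and 211 CPM in untreated normoxia. Departures over these 20 identifiers ran from -0.80 to 1.27 among the rises and from -0.84 to 0.49 among the falls.

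**Figure D5:**
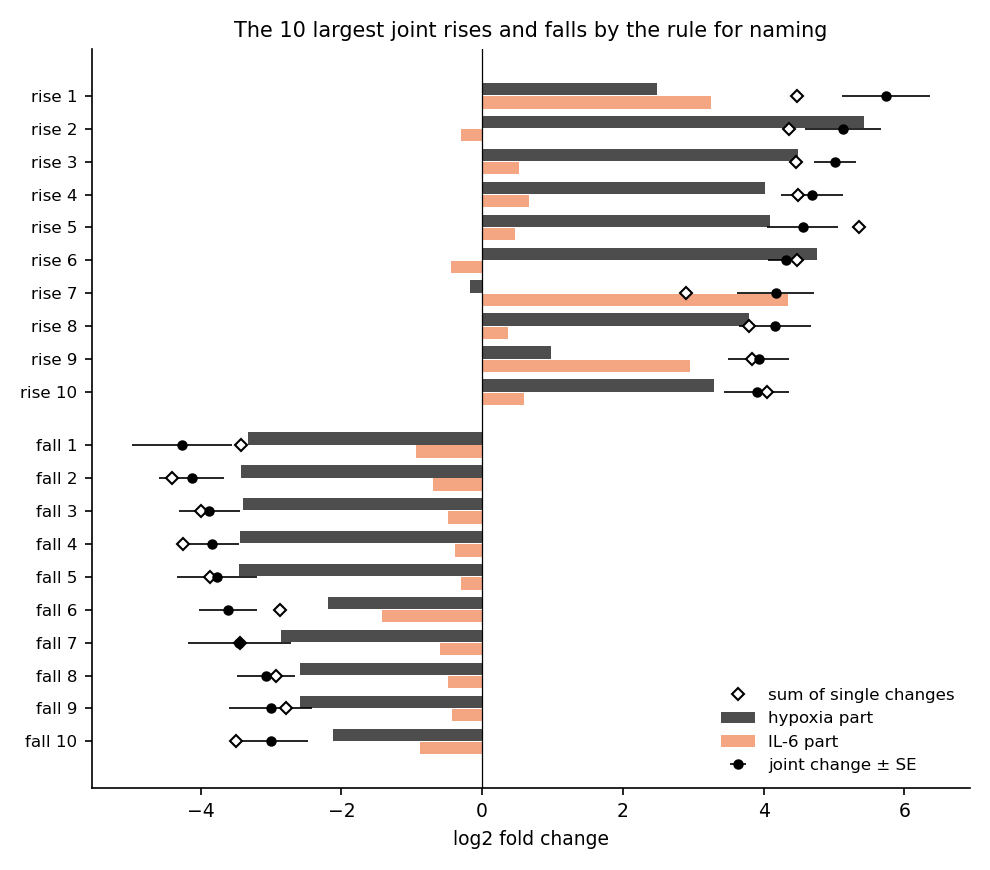
Hypoxia part (grey bars), IL-6 part (orange bars), joint change (black points, whiskers ± SE) and sum of the single changes (open diamonds), all as log2 fold change on the x axis, for the 10 largest joint rises and the 10 largest joint falls by the rule for naming, ranked downwards. In the falls the hypoxia part is the longer bar in 10 of 10, and in the rises the IL-6 part is the longer in 3 of 10. The hypoxia part is the larger in 9412 of all 13432 identifiers.

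In some identifiers the agents worked against each other, so that the joint comparison alone showed little. The hypoxia part passed the edgeR test for 12.7% of identifiers (5.28% upwards, 7.44% downwards), and the IL-6 part for 1.14% (0.96% upwards, 0.179% downwards). Both passed upwards in 29 identifiers and both downwards in 6, and all of these were also called in the joint change. Hypoxia lowered and IL-6 raised 20 identifiers, of which 19 were not called in the joint change and 1 was higher. Hypoxia raised and IL-6 lowered 4, of which 0 were called. The median joint change was 2.64 over the 29, -2.17 over the 6, 0.14 over the 20 and -0.09 over the 4. The joint change is the sum of the 2 parts, so these joint calls and medians follow largely from how the classes were chosen. Both parts come from the same 12 libraries, so these counts are a description, and they rest on few calls for IL-6: leaving out 1 library at a time gave 15 to 24, 2 to 7, 10 to 17 and 1 to 3 identifiers in the same order, and leaving out replicate 2 in every group gave 6, 0, 4 and 0. With lane as a term they were 77, 31, 78 and 24, still in that order.

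The strongest case with hypoxia down and IL-6 up was uc008jfl.1. It was at 22.4, 10.3 and 13.4 CPM in hypoxia with IL-6, at 1.23, 1.35 and 3.20 CPM in hypoxia alone, at 55.3, 45.5 and 56.3 CPM with IL-6 alone, and at 8.78, 9.03 and 16.1 CPM in untreated normoxia. The groups of the joint comparison overlapped, while hypoxia alone lay wholly below and IL-6 alone wholly above both of them. The hypoxia part was -2.19 (SE 0.27, edgeR adjusted p = 3.98e-05) and the IL-6 part 2.63 (SE 0.27, edgeR adjusted p = 2.26e-05). The identifier was chosen because both parts passed with opposite signs, so these p-values and the order of the groups are a description. The joint change of 0.44 had a 95% interval from -0.27 to 1.16 and did not pass (edgeR adjusted p = 0.627). Multiplying the folds of the means gives 8.92 CPM and adding the CPM changes 43.0 CPM, against the observed 15.3 CPM ± 6.31 (SD, n = 3). The departure of 0.85 had a 95% interval from -0.29 to 1.99, and by replicate number it was 1.29, 0.40 and 0.19.

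The reverse case was uc007pem.1, at 7.34, 7.79 and 13.2 CPM in hypoxia with IL-6, at 16.4, 25.0 and 17.6 CPM in hypoxia alone, at 4.04, 3.42 and 3.76 CPM with IL-6 alone, and at 11.5, 8.81 and 5.55 CPM in untreated normoxia. Again hypoxia with IL-6 and untreated normoxia overlapped, with hypoxia alone above and IL-6 alone below both. The hypoxia part was 1.27 (SE 0.24, edgeR adjusted p = 0.00147) and the IL-6 part -1.13 (SE 0.24, edgeR adjusted p = 0.0192). Here too the choice rested on both parts passing with opposite signs, so these p-values and the order of the groups are a description. The joint change was 0.14 with a 95% interval from -0.55 to 0.82, and its sign turned without hypoxia 12 h IL-6 replicate 3 (-0.23) and without normoxia 12 h untreated replicate 3 (-0.14). The departure of 0.14 had an interval from -0.85 to 1.13. The call of the IL-6 part was lost in 7 of the 12 fits that left out 1 library, with adjusted p up to 0.0810.

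Lane, replicate number and read classes moved with the groups to different degrees. Hypoxia with IL-6 was sequenced in lanes 3, 6 and 8 and untreated normoxia in lanes 2, 3 and 7, so the joint change is partly confounded with lane. Within each oxygen condition the lanes were the same with and without IL-6, except replicate 2 in normoxia (lane 6 with IL-6, lane 3 without), so lane drops out of the departure but for that replicate. With lane as a term, 1377 identifiers were called in the joint change (607 higher, 770 lower) and 0 in the departure. The only lane with libraries of both compared groups held 1 of each, which is too few for a value within a lane. Reads outside annotated features made up 17.9% ± 4.82 of uniquely aligned reads in hypoxia with IL-6 and 16.6% ± 4.23 in untreated normoxia (SD, n = 3 each). Reads in the ambiguous row made up 46.1% ± 2.45 and 48.1% ± 2.18 in the same order, so identifiers that overlap others were measured from part of their reads.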

How the data were processed

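The authors deposited raw read counts, not normalized, for 63244 UCSC transcript identifiers. The build mm10 and the tools TopHat2, HTSeq and DESeq2 are named, the tools without versions, per the submitters' processing notes. Ribosomal RNA was depleted, per the labels' protocols. The 5 HTSeq summary rows were left out of totals and tests. From the counts, edgeR 4.0.16 (R 4.3.3) was run here on all 18 libraries: filterByExpr by group (13432 identifiers, 99.5% to 99.7% of each library's counts), TMM scaling, 1 coefficient per group, robust quasi-likelihood F-test, Benjamini-Hochberg adjustment within a comparison, call at adjusted p under 0.05. Standard errors come from the fit's information matrix and posterior quasi-dispersion. CPM use TMM-scaled totals. Values by replicate number use log2 CPM with a prior count of 2. Those of the hypoxia part, the IL-6 part and the departure pair numbers across oxygen, so their SD depends on that pairing. Scripts were tested on simulated data. Pairs of libraries within a group differed beyond sampling noise (chi-square divided by its degrees of freedom, 16.1 to 92.8), so none was treated as a duplicate.

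The rule for naming took the largest changes among calls that averaged 5 CPM or more and had no overlap between groups (250 rises and 291 falls qualified), plus the largest opposed hypoxia and IL-6 parts that each passed the test; with no gene names, 4 identifiers are printed. The comparison, the lists and the rule were chosen with earlier results of these data known. The 0 h readout was an addition made with the data seen. Libraries of 1 number deviated together within oxygen (correlations of deviations from 0.35 to 0.69, a pairing taken from the replicate numbers in the labels) but not across it for all numbers (hypoxia with IL-6 and untreated normoxia, -0.13 to 0.47), so the block within oxygen is given for the departure. Alternatives were DESeq2 1.42.0, the replicate block, lane, RLE factors, no filter, fewer libraries in the fit, each library left out, a linear scale and thinning.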

Additional observations from a re-analysis of the deposited data

Results flagged for a closer look

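The departure from additivity compares the IL-6 response in hypoxia with that in normoxia, and it was picked out because a test of that difference, with the replicate block within oxygen, called 6 identifiers by edgeR, where the fit without a block called 0.

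The share of uniquely aligned reads outside annotated features and the share in the ambiguous row were picked out because every hypoxia pair moved opposite to every normoxia pair under IL-6; that difference was not tested. The first changed by a mean of -2.93 percentage points ± 1.93 in hypoxia and 1.52 ± 1.27 in normoxia (SD, n = 3 each), a difference of -4.45. The second changed by 2.01 ± 1.18 in hypoxia and -0.84 ± 0.523 in normoxia (SD, n = 3 each), a difference of 2.86. Both are shares of the same reads, and their part in the departures was not tested.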

How the results depend on the processing

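The joint change held 1487 calls with the replicate block across all groups (690 higher, 797 lower), 1377 with lane as a term, 435 with the 6 compared libraries only and 182 without replicate 2 in every group; leaving out 1 library gave 444 to 779. It held 926 with DESeq2 and 572 after thinning, which was chosen after seeing the data. Departures numbered 0 with lane, with DESeq2, with the replicate block across all groups and in each fit without 1 library, 1 with no filter on low counts, and 6 with the replicate block within oxygen, or 0, 3 and 4 when replicate 1, 2 or 3 was also dropped (added after seeing the data). Hypoxia alone against IL-6 alone gave 2023 with the replicate block, 2208 with lane, 1331 without hypoxia replicate 3, 163 without replicate 2 in every group, and 449 to 924 without 1 library. With the replicate block across all groups, the 114 and 32 risers and the 185 fallers by stronger single agent became 278, 80 and 426. Over all identifiers of that fit, 871 were higher and 1152 lower in hypoxia alone than with IL-6 alone. The 164 risers and 207 fallers already changed at 0 h became 357 and 452 with the block (337 and 529 with lane). The share of all identifiers called at 0 h was not computed for these fits. Identifiers with both parts up, both down, hypoxia down with IL-6 up, and hypoxia up with IL-6 down numbered 66, 27, 49 and 7 with the replicate block across all groups.

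The median departure over risers was 0.12 without replicate 2 in every group, 0.19 on the linear scale, and -0.0720 to 0.11 without 1 library. Over fallers it was 0.20 with no filter, 0.36 on the linear scale (for the 317 of 378 with an added level above 0), and 0.0061 to 0.22 without 1 library. The median hypoxia part over risers was 0.90 with the replicate block, 0.97 with lane, 1.39 without replicate 2 in every group, and 1.14 to 1.39 without 1 library. Over fallers it was -0.89 with the block, -0.95 with lane, -1.31 with no filter, -1.83 without replicate 2 in every group, -1.39 for calls of at least 2-fold, and -1.31 to -1.19 without 1 library.

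Of 580 alternative values for the 4 named identifiers, 530 kept direction and side of the threshold, 33 lost the call, 9 gained it and 8 changed sign; none of the sign changes was in a value that had passed. For uc007pem.1 the joint change was -0.23 without hypoxia 12 h IL-6 replicate 3, -0.14 without normoxia 12 h untreated replicate 3 and -0.21 without hypoxia replicate 3 in all groups, and the departure was -0.20 and -0.26 in the first and last of these and -0.12 without normoxia 12 h untreated replicate 1. For uc008hmf.2 the departure was 0.16 without hypoxia 12 h untreated replicate 3 and 0.11 without hypoxia replicate 3 in all groups. Over all fits without 1 library these departures ran from -1.45 to 0.16 for uc008hmf.2 and from -0.20 to 0.38 for uc007pem.1. The cause of these shifts was not tested.

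The interval of the departure lay within 2-fold for 23.5% of identifiers, or 47.1% with the block within oxygen, so for the others a 2-fold departure was not excluded. Hypoxia alone, at a mean of 4861150 assigned counts, was the shallowest group.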
